A study of Mus musculus with 32 samples.

Results

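The genes described here are 44 genes of the NRF2 response and of glutathione-dependent detoxification, read from tumor cells of mouse lung adenocarcinomas by bulk RNA sequencing. They were taken by symbol from the 53558 genes in the deposited tables, and all 44 were found. NRF2 (gene Nfe2l2) is a transcription factor that KEAP1 marks for destruction until oxidants or electrophiles modify KEAP1. NRF2 then binds antioxidant response elements in the promoters of enzymes that make glutathione, conjugate it to reactive compounds, regenerate NADPH and remove quinones, peroxides and free heme. In lung adenocarcinoma KEAP1 is often mutated together with LKB1, and in the healthy lung alveolar type II cells are rich in several of these enzymes.

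Every tumor carried a tdTomato reporter switched on by lentiviral Cre, which also started the tumors. The 4 KT libraries came from untreated mice with wild-type Lkb1 (gene Stk11). All other mice carried the Lkb1XTR allele, made from a single targeted embryonic stem cell clone, in which Cre turns on a gene trap that silences Lkb1. FLPo-ERT2, a recombinase that acts under tamoxifen, can later remove this trap. Mice of every group, KT included, were on a mixed background. Non-restored tumors were 10 libraries with the trap still in place, 4 from mice given tamoxifen without FLPo-ERT2 and 6 from mice given vehicle with FLPo-ERT2. The 7 restored libraries came from mice with FLPo-ERT2 that received tamoxifen, in doses of 4 mg, starting 2 weeks before harvest. A further 7 non-restored libraries, from 4 animals by their titles, and 4 restored libraries, treated as above, also lacked Trp53. Of those 4 non-restored animals 2 (replicates 1 to 3 and 4 to 5, a female and a male) had FLPo-ERT2 and vehicle, and 2 (replicates 6 and 7, a male and a female) had tamoxifen without FLPo-ERT2. Trp53 wild-type tumors were harvested 24 to 27 weeks after initiation and Trp53-deficient tumors at 16 to 19 weeks, so Trp53 status and tumor age cannot be told apart. All restored mice of both backgrounds were female, as were 7 of the 10 non-restored and 2 of the 4 KT libraries. The study counts fewer mice than libraries in the Trp53 wild-type non-restored and restored groups, so some libraries may share a mouse, and p-values treat them as independent. Counts of these libraries are therefore not counts of mice. A fit without a single library may still hold another library of the same mouse.

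Libraries held between 1302482 and 5943951 expected counts. Levels of a single gene across libraries are given in CPM, read counts scaled to a common library size with TMM factors. Stk11 stood at 16.6 to 27.3 CPM in KT, at 0 to 1.07 CPM in non-restored and at 11.6 to 22.4 CPM in restored libraries, in the order the labels give. The summed level of 10 alveolar type II markers was 44950 to 88705 CPM in KT, 6147 to 73104 CPM in non-restored and 41548 to 109136 CPM in restored libraries. None of the 10 passed the test in the comparisons of these groups, nor did any tested marker of airway, immune, endothelial or fibroblast cells. Some libraries stood apart within their group. Restored replicates 4 and 5 had the lowest alveolar type II sums of their group (41548 and 50341 CPM, against 81795 to 109136 CPM in the other 5) and the highest sums of 8 airway markers (1401 and 1680 CPM, against 71.27 to 709.6 CPM). Non-restored replicates 8, 4 and 5 had the lowest alveolar type II sums of theirs (6147, 32124 and 45609 CPM), and replicates 8 and 4 the highest airway sums (6623 and 1429 CPM). Of the airway markers, Scgb1a1 stood at 3.96 and 6.77 CPM in non-restored replicates 8 and 4, and Cyp2f2 at 12.8 and 19.5 CPM. In restored replicates 4 and 5 Scgb1a1 stood at 17.2 and 26.9 CPM, and Cyp2f2 at 278 and 341 CPM. Other genes of the list made most of these sums, and the cells they came from were not tested. The pan-leukocyte gene Ptprc exceeded 10 CPM in restored replicates 1 and 6 and in non-restored replicate 2, although CD45-positive cells had been gated out. For several results, fits with and without some of these libraries are given. In these bulk samples, fewer cells of a type and less RNA per cell cannot be told apart.

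The antioxidant response element can be looked for in the promoters themselves. RefSeq (build GRCm38.p6) gave the 250 bases before and 50 bases after the transcription start for 37 of the 44 genes. Gclc, Hmox1, Prdx6, Gsta4, Gsr, Sod3 and Aldh3a1 had no entry and were not searched. The core of the element, TGACNNNGC, was searched on both strands (GCNNNGTCA on the opposite strand), and it was present for 11 of the 37 genes (29.7%), against 14.0% of all 27025 symbols in the table. Those 11 were Nfe2l2, Gsta3, Gstm5, Mgst1, Gclm, Ggt1, Srxn1, Prdx1, Sod1, Pgd and G6pdx. Below are 2 promoters that hold the core and whose genes passed the tests described later, Gsta3 (chr1:21240335-21240634, + strand) and Mgst1 (chr6:138140277-138140576, + strand). With them stand Prdx1 (chr4:116685349-116685648, + strand), which holds the core and whose gene did not pass, and Cat (chr2:103485104-103485403, - strand), whose gene passed and whose window holds no match. Capitals mark the core, and each sequence reads 5′ to 3′ along the gene.
Gsta3: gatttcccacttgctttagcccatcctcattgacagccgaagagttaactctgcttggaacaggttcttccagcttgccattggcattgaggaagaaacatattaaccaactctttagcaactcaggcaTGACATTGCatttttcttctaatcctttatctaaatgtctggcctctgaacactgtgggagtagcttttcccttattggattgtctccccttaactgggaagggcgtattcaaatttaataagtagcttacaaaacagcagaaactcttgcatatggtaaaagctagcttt
Mgst1: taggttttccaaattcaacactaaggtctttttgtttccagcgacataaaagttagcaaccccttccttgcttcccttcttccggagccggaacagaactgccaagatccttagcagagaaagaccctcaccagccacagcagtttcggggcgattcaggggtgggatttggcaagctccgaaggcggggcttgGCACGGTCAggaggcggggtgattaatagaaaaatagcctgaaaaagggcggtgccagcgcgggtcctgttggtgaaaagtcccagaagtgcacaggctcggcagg
Prdx1: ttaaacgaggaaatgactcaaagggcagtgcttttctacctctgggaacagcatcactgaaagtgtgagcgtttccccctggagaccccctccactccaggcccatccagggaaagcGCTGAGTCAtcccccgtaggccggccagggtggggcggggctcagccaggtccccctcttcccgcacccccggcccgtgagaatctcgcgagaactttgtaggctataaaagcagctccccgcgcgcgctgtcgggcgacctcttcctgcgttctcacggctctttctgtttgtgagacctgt
Cat: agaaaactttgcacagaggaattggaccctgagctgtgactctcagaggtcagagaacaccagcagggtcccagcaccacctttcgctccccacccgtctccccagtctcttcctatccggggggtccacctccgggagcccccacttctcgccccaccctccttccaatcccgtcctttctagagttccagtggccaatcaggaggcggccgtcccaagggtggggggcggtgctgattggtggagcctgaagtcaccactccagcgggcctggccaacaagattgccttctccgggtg
The core began 121 bases before the start in Gsta3 and, on the opposite strand, 56 bases before it in Mgst1 and 133 bases before it in Prdx1. A second window of Mgst1 (chr6:138141337-138141636, + strand) held no match. A match describes these letters in this window and no more.

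Levels between genes were compared in TPM, which is scaled for transcript length. Over all 32 libraries the 44 genes spanned a mean of 2547 TPM for Fth1, the heavy chain of the iron store ferritin, to 1.03 TPM for Ggt1, which cleaves extracellular glutathione. Prdx1, a cytosolic peroxide reductase (1596 TPM), Ftl1, the ferritin light chain (1519 TPM), Mgst1, a membrane-bound glutathione S-transferase and peroxidase (939 TPM), and Sod1, the cytosolic superoxide dismutase (872 TPM), followed Fth1. At the low end stood Srxn1, which repairs overoxidized peroxiredoxins (6.29 TPM), Nqo1, the quinone reductase often read as an NRF2 marker (2.36 TPM), the extracellular superoxide dismutase Sod3 (1.53 TPM) and the aldehyde dehydrogenase Aldh3a1 (1.12 TPM). Nfe2l2 itself averaged 361.9 TPM and Keap1 11.02 TPM. The 44 genes together took 1.03% to 1.28% of all TPM in KT libraries, 0.712% to 1.41% in non-restored and 0.88% to 1.60% in restored libraries, ranges that overlap.

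**Figure D1:**
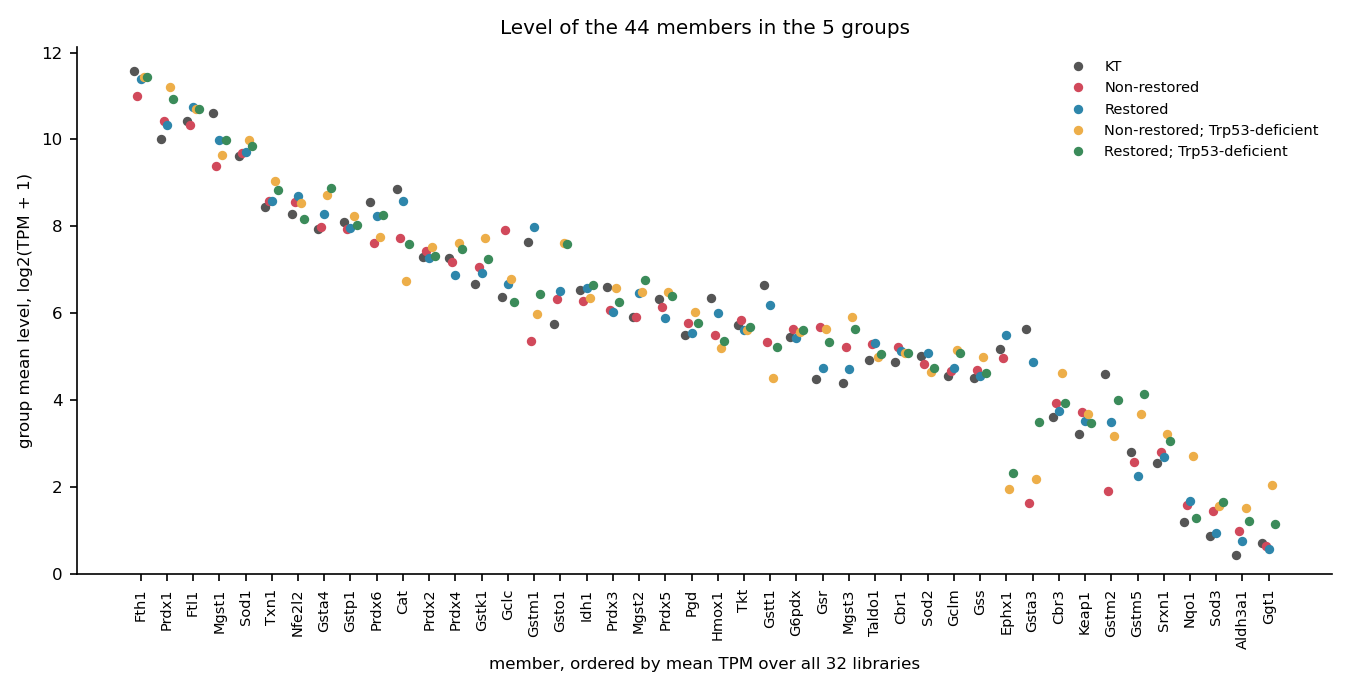
Mean level of each of the 44 genes in the 5 groups, as log2(TPM + 1) on the y axis, with genes on the x axis ordered by their mean over all 32 libraries; each point is a group mean. The order runs from Fth1 (2547 TPM) to Ggt1 (1.03 TPM), and Gsta3, Gstm1, Gstm2 and Ephx1 show group means far apart.

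The Trp53 wild-type libraries were compared to ask what differed when Lkb1 was lost (non-restored against KT), what differed when it was given back for 2 weeks (restored against non-restored), and whether restored tumors differed from tumors that had never lost it (restored against KT). The loss and restoration comparisons share the 10 non-restored libraries, so opposite signs in them are not independent, and their values are set side by side. Of the 44 genes 41 had enough counts to be tested, and Nqo1, Aldh3a1 and Ggt1 did not.

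In non-restored tumors 10 of the 41 genes were lower than in KT and 1 was higher, by edgeR's quasi-likelihood test with Benjamini-Hochberg adjustment over all 12636 genes tested. Of all genes tested 3.48% were called lower and 5.86% were called in either direction. The lower genes were 5 glutathione S-transferases (Gsta3, Gstm1, Gstm2, Gstt1 and Mgst1), the peroxiredoxins Prdx6 and Prdx3, catalase (Cat), heme oxygenase (Hmox1) and Fth1, and the higher gene was Gclc, the catalytic subunit of the enzyme that starts glutathione synthesis. In restored tumors 5 of the 41 were higher than in non-restored tumors and 0 were lower, Gsta3, Gstm1, Mgst1, Prdx6 and Cat, where 0.973% of all genes were called higher and 1.87% in either direction. The median log2 fold change over the 41 was -0.12 for non-restored against KT, beside 0.03 over all genes, and 0.07 for restored against non-restored, beside -0.01 over all genes. Without restored replicates 4 and 5 the latter median was -0.18, beside -0.01 over all genes. In that fit Gsta3, Prdx6 and Cat were called higher after restoration, and Gclc and Mgst3 were called lower. An unadjusted p under 0.05 was reached by 14 of the 41 genes in restored against non-restored, 12 of them higher, beside 15.1% of all genes. Against the tamoxifen arm of the non-restored group alone, 1 member (Prdx6) was called higher after restoration, and 4 were called lower in that arm than in KT (Prdx6, Gsta3, Mgst1 and Cat). DESeq2 called 8 members for restored against non-restored, adding Ftl1, Gstt1 and Gclc, the last of them lower.

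**Figure D2:**
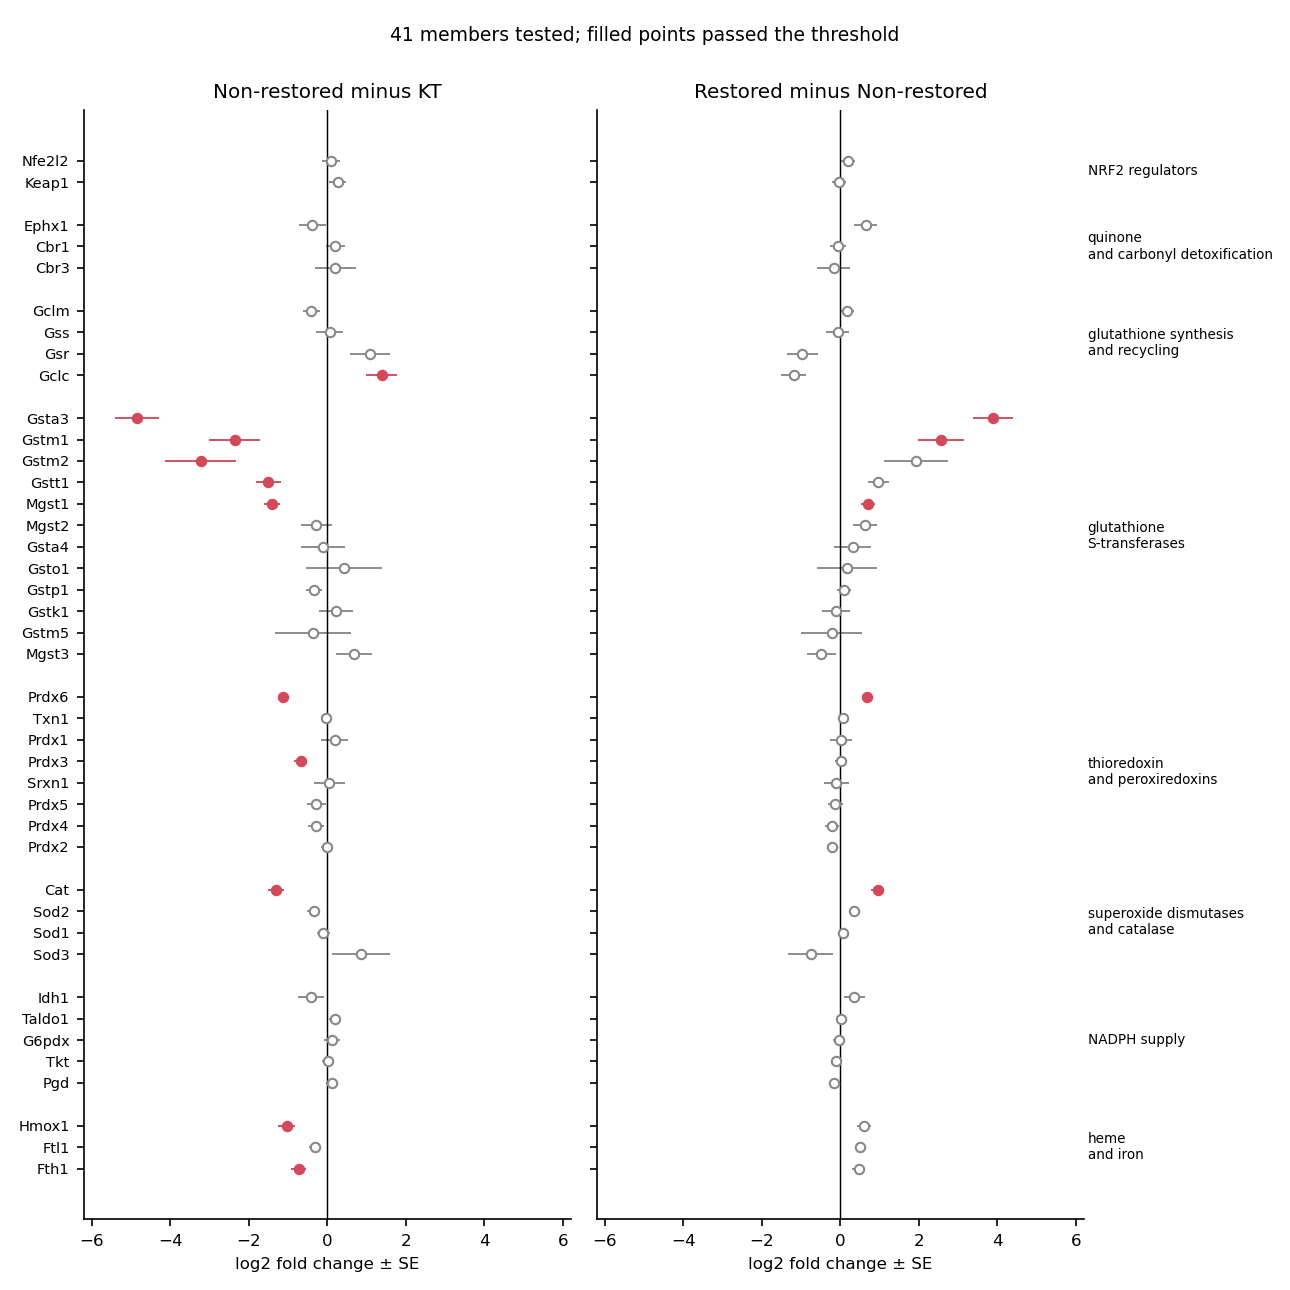
Log2 fold change (x axis, bars show the standard error) of the 41 tested genes, grouped by role on the y axis, for non-restored minus KT and restored minus non-restored; filled points passed the threshold (adjusted p of 0.05, edgeR). Filled points lie at 11 genes for non-restored minus KT, 10 of them below 0, and at 5 genes for restored minus non-restored, all above 0.

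Neither regulator passed in these comparisons. Nfe2l2 stood at 322, 692, 754 and 528 CPM in KT replicates 1 to 4, at 405 to 809 CPM (median 604.9) in non-restored and at 423 to 1059 CPM (median 648.7) in restored libraries. Its log2 fold change was 0.09 ± 0.234 (SE) after Lkb1 loss (non-restored against KT) and 0.19 ± 0.193 after restoration, with adjusted p of 0.872 and 0.706 (edgeR). Keap1 stood at 15.8 to 29.7 CPM in KT, 16.3 to 34.1 CPM in non-restored and 12.9 to 29.9 CPM in restored libraries, with log2 fold changes of 0.26 ± 0.213 and -0.03 ± 0.170 (adjusted p of 0.527 and 0.966, edgeR). The ranges of the 3 groups overlapped for both genes. These are transcript levels, and NRF2 is regulated mainly through the stability of its protein, which was not measured.

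The glutathione S-transferases, which join glutathione to electrophiles, held the largest differences of the set. Of 12 genes 5 were lower in non-restored tumors than in KT and 3 were higher after restoration, beside 3.48% and 0.973% of all genes. The median log2 fold changes of the 12 were -0.35 and 0.47, beside 0.03 and -0.01 over all genes.

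Gsta3 (chr1:21240589-21265661, + strand, protein-coding), an alpha-class transferase that also takes lipid peroxidation products, changed most. It stood at 46.6, 24.1, 24.8 and 103 CPM in KT replicates 1 to 4, at 0.344 to 5.25 CPM (median 1.61) in non-restored and at 3.21 to 67.4 CPM (median 17.8) in restored libraries. Every KT library was above every non-restored library, and among restored libraries replicate 1, at 3.21 CPM, lay within the non-restored range. It was 28.8-fold lower in non-restored tumors than in KT (log2 fold change -4.85 ± 0.561, adjusted p = 2.18e-05, edgeR) and 14.9-fold higher after restoration (3.90 ± 0.515, adjusted p = 0.000233, edgeR). The non-restored libraries held 1 to 13 counts each, so the size of these folds rests on few reads. Against the tamoxifen arm of the non-restored group alone the second difference had an adjusted p of 0.0502.

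Mgst1 (chr6:138140316-138156755, + strand, protein-coding) stood at 1006, 662, 777 and 1128 CPM in KT replicates 1 to 4, at 163 to 473 CPM (median 336.4) in non-restored and at 419 to 765 CPM (median 538.2) in restored libraries. The KT and non-restored ranges did not overlap, while the restored range met both. It was 2.64-fold lower in non-restored tumors than in KT (log2 fold change -1.40 ± 0.204, adjusted p = 0.000232, edgeR) and 1.64-fold higher after restoration (0.71 ± 0.177, adjusted p = 0.0374, edgeR). The second call was lost in 11 of 21 fits that left out a single library, with an adjusted p of at most 0.0854. It was lost too in 6 of 14 other settings. Among them were the fits without restored replicates 4 and 5 and without libraries with Ptprc over 10 CPM.

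Gstm1 (chr3:108012255-108017973, - strand, protein-coding) is a mu-class transferase. It stood at 253, 57.3, 78.9 and 213 CPM in KT replicates 1 to 4 and at 9.11 to 51.7 CPM (median 30.4) in non-restored libraries. Restored replicates 4 and 5 stood at 458 and 501 CPM, and the other 5 restored libraries at 31.5 to 63.3 CPM, a range that overlapped the non-restored group. The log2 fold change was -2.36 ± 0.658 for non-restored against KT (adjusted p = 0.0372, edgeR) and 2.57 ± 0.585 for restored against non-restored (adjusted p = 0.0242, edgeR). Without restored replicates 4 and 5 the latter was 0.77, with an adjusted p of 0.311, and leaving out either of them alone also lost the call. It was lost too with no filter on low counts, with each control arm alone, in females alone and with the replicate block. The first call was lost in 8 of 21 fits without a single library, among them those without KT replicates 1, 3 or 4.

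Gstm2, its mu-class neighbor, followed the same libraries. It stood at 35.6, 2.49, 17.9 and 8.64 CPM in KT, at 0 to 5.82 CPM in non-restored libraries, at 20.7 and 18.5 CPM in restored replicates 4 and 5 and at 0.344 to 1.93 CPM in the other 5. It was 9.37-fold lower in non-restored tumors than in KT (log2 fold change -3.23 ± 0.910, adjusted p = 0.0385, edgeR), a call lost in 10 of 21 fits without a single library and in 6 of 12 other settings, among them no filter on low counts, sex as a covariate and each control arm alone. The non-restored libraries held 0 to 25 counts of Gstm2 each, and its difference between restored and non-restored tumors did not pass (1.93 ± 0.817, adjusted p = 0.258). Gstt1, a theta-class transferase, stood at 102, 59.8, 56.5 and 56.6 CPM in KT, at 5.82 to 37.7 CPM (median 27.0) in non-restored and at 36.3 to 55.3 CPM (median 47.6) in restored libraries. It was 2.84-fold lower in non-restored tumors than in KT (-1.51 ± 0.312, adjusted p = 0.00558, edgeR) and its value for restored against non-restored was 0.96 ± 0.269 (adjusted p = 0.0697, edgeR). Without KT replicate 1 the adjusted p of the former was 0.055.

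The remaining 7 transferases (Gsta4, Gstm5, Gstp1, Gstk1, Gsto1, Mgst2 and Mgst3) did not pass in either comparison. Several of them varied more within groups than between them. Gsto1, an omega-class transferase with reductase activity, stood at 173 and 209 CPM in restored replicates 4 and 5 and at 8.09 to 18 CPM in the other restored libraries. In the non-restored group it was highest in replicates 8, 4 and 5, at 201, 155 and 62.8 CPM, and 9.81 to 32.2 CPM elsewhere. The same 5 libraries were the highest of their groups for Gsta4, which clears the lipid peroxidation product hydroxynonenal, at 400 and 405 CPM in restored replicates 4 and 5 and at 446, 263 and 203 CPM in non-restored replicates 8, 4 and 5. The standard deviation within groups on the log2 scale was 1.55 for Gsto1, 1.28 for Gstm2, 1.21 for Gstm1 and 1.08 for Gstm5, against a median of 0.419 over the 41 tested genes. These libraries are those with the lowest alveolar type II marker sums of their groups, given above, and the part of cell makeup in these values was not tested.

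**Figure D3:**
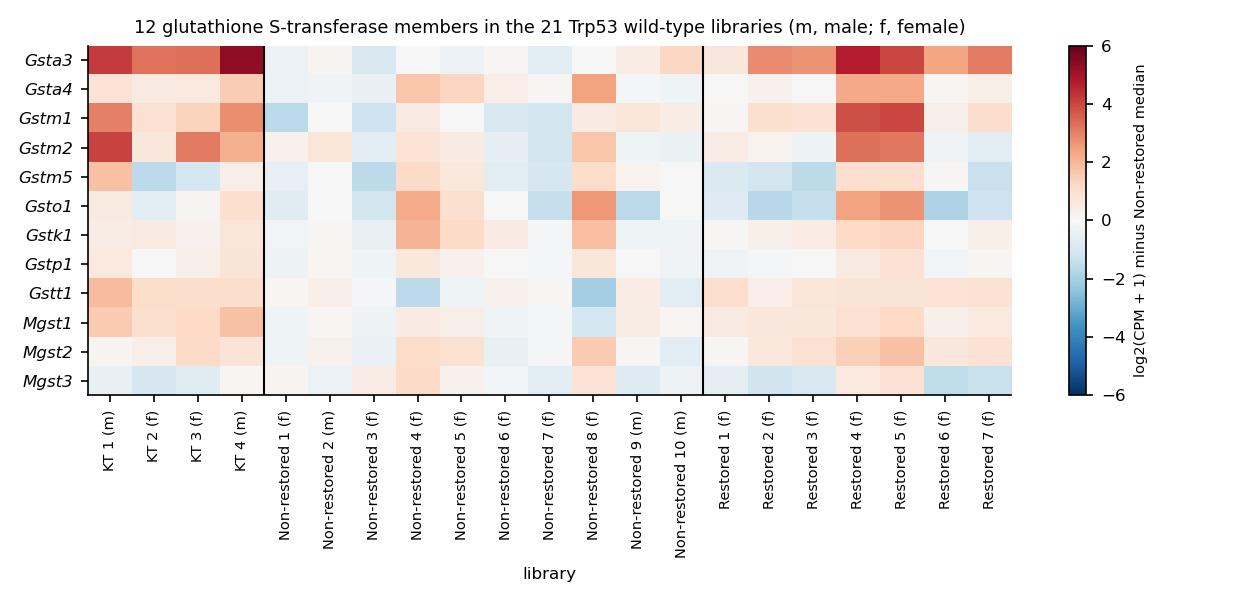
Level of the 12 glutathione S-transferases (rows) in each of the 21 Trp53 wild-type libraries (columns, m male, f female), as log2(CPM + 1) minus the median of the non-restored libraries; red is above and blue below that median, and lines part the groups. Gsta3 is red in all 4 KT and all 7 restored columns, while Gstm1, Gstm2, Gsto1 and Gsta4 are deepest red among restored columns in replicates 4 and 5.

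Among the thioredoxin and peroxiredoxin genes, 2 of 8 were lower in non-restored tumors than in KT and 1 of 8 was higher after restoration. Of all genes 3.48% and 0.973% were called in these directions. Prdx6 (chr1:161240112-161251219, - strand, protein-coding), a peroxidase that uses glutathione and also acts on the phospholipids of lung surfactant, was the member whose calls held most widely. It stood at 352, 425, 345 and 464 CPM in KT replicates 1 to 4, at 155 to 227 CPM (median 183.4) in non-restored and at 211 to 346 CPM (median 286.6) in restored libraries. The KT and non-restored ranges did not overlap, and 6 of 7 restored libraries lay above every non-restored library. It was 2.19-fold lower in non-restored tumors than in KT (log2 fold change -1.13 ± 0.118, adjusted p = 4.08e-06, edgeR) and 1.59-fold higher after restoration (0.67 ± 0.102, adjusted p = 0.000755, edgeR). Both calls held in each of the 21 fits without a single library and in every other setting tried, 13 for the former and 14 for the latter. Its standard deviation within groups, 0.195 on the log2 scale, was the lowest of the 41 tested genes.

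Prdx3, the mitochondrial peroxiredoxin, was lower in non-restored tumors than in KT. It stood at 119, 87.2, 112 and 84.4 CPM in KT, at 44 to 95.2 CPM (median 59.8) in non-restored and at 53.3 to 79 CPM (median 60.8) in restored libraries. Its log2 fold change was -0.68 ± 0.168 for non-restored against KT (adjusted p = 0.0175, edgeR), a call that was lost without KT replicate 1 or 3, and its value for restored against non-restored was 0.01 ± 0.143 (adjusted p = 0.989, edgeR). Prdx1 did not pass in either comparison and was high in restored replicates 4 and 5 (1900 and 2150 CPM, against 773 to 1096 CPM in the others) and in non-restored replicates 8 and 4 (2676 and 2196 CPM, against 769 to 1219 CPM). Srxn1, Txn1, Prdx2, Prdx4 and Prdx5 did not pass in either.

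Catalase, which splits hydrogen peroxide in peroxisomes, was the member of its group that passed, while the superoxide dismutases Sod1, Sod2 and Sod3 did not. Cat (chr2:103453849-103485160, - strand, protein-coding) stood at 795, 1046, 956 and 852 CPM in KT replicates 1 to 4, at 146 to 514 CPM (median 376.3) in non-restored and at 556 to 850 CPM (median 712.7) in restored libraries. Both KT and restored ranges lay wholly above the non-restored range. It was 2.48-fold lower in non-restored tumors than in KT (log2 fold change -1.31 ± 0.196, adjusted p = 0.000318, edgeR) and 1.93-fold higher after restoration (0.95 ± 0.170, adjusted p = 0.00399, edgeR). Against the tamoxifen arm alone the adjusted p of the latter was 0.154, with a log2 fold change of 0.88.

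Sod1 stood at 270 to 331 CPM in KT, at 208 to 352 CPM in non-restored and at 208 to 392 CPM in restored libraries, ranges that overlapped fully. Its log2 fold changes of -0.10 ± 0.161 and 0.08 ± 0.134 did not pass.

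The 3 heme and iron genes had median log2 fold changes of -0.73 for non-restored against KT, where 2 of them passed, and 0.51 for restored against non-restored, where 0 passed and all 3 had an unadjusted p under 0.05. Over all genes these medians were 0.03 and -0.01. Of all genes 3.48% were called lower in the former, and 15.1% had an unadjusted p under 0.05 in the latter. Hmox1, which opens the heme ring and frees its iron, stood at 90.4, 79.7, 127 and 66.2 CPM in KT, at 17.9 to 54.5 CPM (median 47.2) in non-restored and at 51 to 91.9 CPM (median 61.6) in restored libraries. It was 2.06-fold lower in non-restored tumors than in KT (log2 fold change -1.04 ± 0.215, adjusted p = 0.00527, edgeR), and its value for restored against non-restored did not pass (0.60 ± 0.184, adjusted p = 0.103, edgeR). Without KT replicate 3 the adjusted p of the former was 0.0532.

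Fth1 stood at 1715, 1452, 1968 and 1600 CPM in KT, at 705 to 1450 CPM in non-restored and at 1143 to 1880 CPM in restored libraries. It was 1.66-fold lower in non-restored tumors than in KT (-0.73 ± 0.184, adjusted p = 0.0195, edgeR), lost without KT replicate 1 or 3, and its value for restored against non-restored was 0.46 ± 0.157 (adjusted p = 0.145). Ftl1 stood just outside the threshold for restored against non-restored, at 0.51 ± 0.133 (adjusted p = 0.0513, edgeR). The restored range of Hmox1 overlapped the non-restored range in its lower part, and the highest Hmox1 values of the restored group, 91.9 and 84.2 CPM, were in replicates 1 and 6, in which Ptprc stood at 45.6 and 38.6 CPM. The part of leukocyte RNA in these values was not tested.

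Quinone and carbonyl detoxification and NADPH supply gave 0 calls in either comparison, among 3 and 5 tested genes. Ephx1, the microsomal epoxide hydrolase, stood at 45.2, 36.5, 48.4 and 48 CPM in KT replicates 1 to 4, at 12.1 to 58.4 CPM (median 32.2) in non-restored and at 29.6 to 72.1 CPM (median 60.1) in restored libraries. Its value for restored against non-restored was 0.64 ± 0.281 (adjusted p = 0.277, edgeR). Idh1, a cytosolic source of NADPH, gave 0.36 ± 0.271 (adjusted p = 0.581, edgeR). Nqo1 was at 0 in 1 of 4 KT libraries and reached 6.64 CPM at most in Trp53 wild-type libraries, in restored replicate 4. Aldh3a1 reached 5.59 CPM, in non-restored replicate 8, and Ggt1 1.29 CPM, in non-restored replicate 2. At such levels a difference was not detectable in these libraries.

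**Figure D4:**
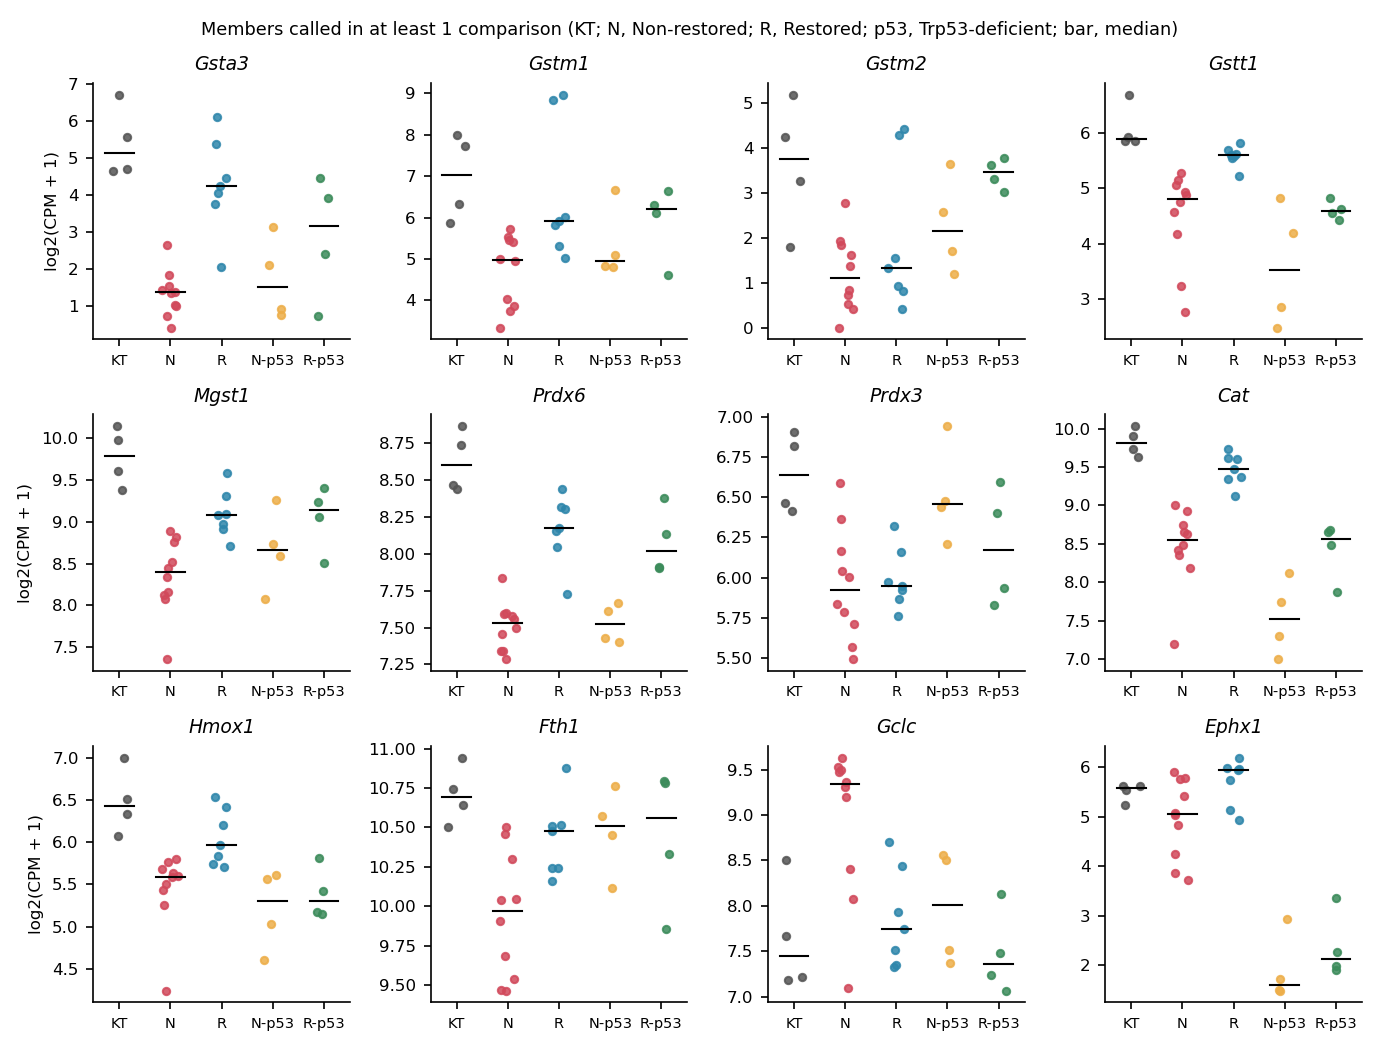
Level of the 12 genes called in at least 1 comparison, as log2(CPM + 1) on y axes that differ between panels, in KT, non-restored (N) and restored (R) libraries and the Trp53-deficient animals (N-p53, R-p53); each point is a library or, for N-p53, an animal, and bars are medians. Cat and Gsta3 in KT lie wholly above the non-restored points, Gclc in most non-restored libraries lies above the other groups, and Ephx1 is low in both Trp53-deficient groups.

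In glutathione synthesis and recycling 1 of 4 tested genes passed for non-restored against KT, and it was higher, where 301 of all 12636 genes were called higher. The 4 genes had median log2 fold changes of 0.57 after Lkb1 loss and -0.52 after restoration, beside 0.03 and -0.01 over all genes. Gclc (chr9:77754535-77794485, + strand, protein-coding) stood at 362, 203, 148 and 145 CPM in KT replicates 1 to 4, at 136 to 792 CPM in non-restored and at 160 to 417 CPM (median 213) in restored libraries. It was higher in non-restored tumors than in KT (log2 fold change 1.38 ± 0.402, adjusted p = 0.0454, edgeR), and its value for restored against non-restored was -1.18 ± 0.320 (adjusted p = 0.0628, edgeR). The former call was lost in 14 of 21 fits without a single library and in 6 of 13 other settings. Among those settings were sex as a covariate, each control arm alone and no filter on low counts.

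Within the non-restored group Gclc divided by sex. The 7 female libraries stood at 588 to 792 CPM and the 3 male libraries at 136, 269 and 339 CPM, with no overlap. They may come from fewer mice than libraries. A fit with a term for each group and sex was chosen after these values had been seen. In females Gclc was higher in non-restored than in KT tumors by 1.98 ± 0.417 on the log2 scale (adjusted p = 0.0172, edgeR) and lower in restored than in non-restored tumors (-1.48 ± 0.246, adjusted p = 0.00254, edgeR). In males the difference between non-restored and KT tumors was -0.03 ± 0.415. The difference between the sexes in this effect, 2.01 ± 0.566, had a p of 0.00202 in edgeR's test and did not pass after adjustment over all genes (adjusted p = 0.265), nor did the difference between female and male non-restored tumors (1.49 ± 0.338, adjusted p = 0.165). Of the 3 male libraries 2 belonged to the tamoxifen arm, and restored tumors held no males. In the same fit Ephx1 was higher in restored females than in non-restored females by 1.07 ± 0.252 (adjusted p = 0.0307, edgeR). With female libraries alone the adjusted p of Ephx1 was 0.0706, and the gene was called in 0 of 14 other settings of that comparison.

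**Figure D5:**
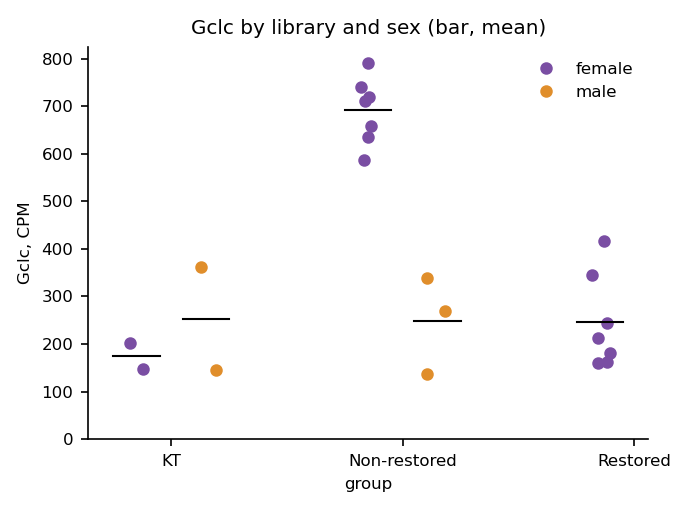
Level of Gclc in CPM (y axis, from 0) in each Trp53 wild-type library by group (x axis) and sex; points are libraries and bars are means of each sex. The 7 female non-restored libraries, at 588 to 792 CPM, lie above every other point, and the 3 male non-restored libraries lie within the KT range or below it.

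Restored tumors were then set against KT tumors. None of the 41 tested genes passed, where 0.459% of all 12636 genes did, and DESeq2 also called 0 of them. In edgeR's test 4 genes had an unadjusted p under 0.05, all lower in restored tumors, beside 10.5% of all genes: Prdx3 (-0.67, adjusted p = 0.111), Prdx6 (-0.46, adjusted p = 0.133), Mgst1 (-0.69, adjusted p = 0.212) and Prdx4 (-0.50, adjusted p = 0.447). Gsta3 gave -0.95 (adjusted p = 0.566). These values do not show that the groups were alike, since 4 KT libraries set the precision.

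In Trp53-deficient tumors the effect of restoration was tested over 4 animals against 4. Of 42 tested genes 0 passed, as did 0% of all 12516 genes, and DESeq2 also called 0 of the members, with 26 genes called in all. In edgeR's test 2 of the 42 members had an unadjusted p under 0.05, beside 5.98% of all genes, and they are given as values. Prdx6 stood at 195, 202, 171 and 168 CPM in the non-restored animals and at 279, 238, 331 and 239 CPM in restored replicates 1 to 4, with no overlap, and its log2 fold change was 0.59 ± 0.149 (adjusted p = 0.804, edgeR). Cat stood at 157, 277, 213 and 127 CPM in the non-restored animals and at 403, 409, 356 and 233 CPM in restored replicates 1 to 4, with restored replicate 4 below the highest non-restored animal, and its log2 fold change was 0.88 ± 0.270 (adjusted p = 0.804, edgeR). The animal of non-restored replicate 7 had an airway marker sum of 12973 CPM, against 217.6 CPM in the lowest of these animals, and 0 members were called without it as well. Of that sum Scgb1a1 made 9.16 CPM and Cyp2f2 25.7 CPM. Gsta3 stood at 0.715 to 7.82 CPM in the non-restored animals and at 14, 4.35, 20.8 and 0.668 CPM in the restored libraries, which overlapped. A test of whether the Trp53 background altered the restoration effect passed for 0 of 43 tested genes and for 0% of all 13706 genes, and DESeq2 called 0 members. Its estimate was -0.11 ± 0.174 for Prdx6, -0.10 ± 0.336 for Cat, -2.40 ± 1.03 for Gsta3 and -2.08 ± 0.989 for Gstm1, with unadjusted p under 0.05 for the last pair and for Ftl1 (-0.51 ± 0.234), beside 3.08% of all genes.

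Ephx1 (chr1:180976210-181020904, - strand, protein-coding) was the member called between the Trp53 backgrounds. It stood at 1.81, 6.59, 1.79 and 2.29 CPM in the 4 Trp53-deficient non-restored animals and at 9.25, 2.97, 2.71 and 3.78 CPM in Trp53-deficient restored replicates 1 to 4, all below the lowest Trp53 wild-type library, at 12.1 CPM. It was 10.6-fold lower in Trp53-deficient than in Trp53 wild-type non-restored tumors (log2 fold change -3.41 ± 0.506, adjusted p = 0.000678, edgeR), and it was the member called among 43 tested, where 0.219% of all genes were called lower. Between restored tumors it was 11.2-fold lower (-3.48 ± 0.513, adjusted p = 0.000773, edgeR), again the member called, where 0.19% of all genes were called lower. Both calls held in all 25 fits without a single library or animal. Harvest time differed between these backgrounds as well as Trp53. The next member by p in both was Cat, at -0.93 ± 0.243 (adjusted p = 0.0679, edgeR) and -1.04 ± 0.254 (adjusted p = 0.0744, edgeR). Over the 43 tested genes the median log2 fold change between the non-restored groups was 0.36, beside -0.02 over all genes, and that between the restored groups was 0.08, beside 0. Without non-restored replicate 8, whose alveolar type II marker sum was 6147 CPM, 6 members were called between the non-restored groups in place of 1, with Cat lower and Ftl1, Prdx1, Prdx3 and Txn1 added. Calls over all genes rose with them, from 80 of 13706 to 1448 of 13429 genes.

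The control arms of the Trp53 wild-type non-restored group were compared. They differ in tamoxifen, in FLPo-ERT2, which only the vehicle arm carried, and in sex (2 of 4 libraries male against 1 of 6), and these cannot be told apart. None of the 41 tested genes differed between 4 tamoxifen and 6 vehicle libraries, where 0.00791% of all genes did, and DESeq2 called 0 of them. In edgeR's test Prdx4 had an unadjusted p under 0.05 (-0.61, adjusted p = 0.954), beside 4.61% of all genes.

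A wider list of 112 other genes of the same pathways gave the surroundings. For non-restored against KT 8 of 97 tested genes were lower and 0 higher (median log2 fold change -0.03), where 3.48% of all genes were called lower. The smallest p-values belonged to Slc40a1, the iron exporter ferroportin (-4.70 ± 0.616, adjusted p = 9.01e-05, edgeR), H6pd, which makes NADPH in the endoplasmic reticulum (-0.76 ± 0.133, adjusted p = 0.00137, edgeR), the glucuronosyltransferase Ugt1a6a (-1.23 ± 0.232, adjusted p = 0.00262, edgeR) and Gstp3, a pi-class transferase (-1.50 ± 0.346, adjusted p = 0.0116, edgeR). For restored against non-restored 5 of 97 were higher and 0 lower, with a median of -0.01, where 0.973% of all genes were called higher. Slc40a1 (2.24 ± 0.570, adjusted p = 0.0451), H6pd (0.55 ± 0.113, adjusted p = 0.0102) and Ugt1a6a (0.92 ± 0.199, adjusted p = 0.0152) were 3 of these, and the glucuronosyltransferase Ugt1a7c (1.38 ± 0.295, adjusted p = 0.0145, edgeR) was another. The autophagy receptor Sqstm1, which competes with NRF2 for KEAP1 (0.48 ± 0.107, adjusted p = 0.0185, edgeR), was the fifth. Restored against KT gave 1 of 97, Glo1, which detoxifies methylglyoxal (-0.74 ± 0.162, adjusted p = 0.0401, edgeR), where 0.459% of all genes were called. Trp53-deficient against wild-type non-restored tumors gave 1 of 101, Sesn2, a stress-induced sestrin (-1.35 ± 0.294, adjusted p = 0.035, edgeR), where 0.219% of all genes were called lower. The other comparisons gave 0 calls in this list.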

How the data were processed

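Tumor cells positive for tdTomato were sorted with CD45, CD31, F4/80 and Ter119 excluded. Per the submitters' notes and the study's methods, the authors aligned reads to mm10 with STAR 2.6.1d and ran RSEM 1.2.30. The deposited expected counts are estimates per gene without normalization, of which 5.57% were not whole numbers, and the deposited TPM values are scaled for length and library size. The 5 tables of the whole series, with the authors' normalized counts and test results, were not used here, and 0 columns of other samples were present.

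Expected counts were rounded, filtered with filterByExpr, scaled by TMM and tested with edgeR 4.0.16 (quasi-likelihood F test, robust, limma 3.58.1, R 4.3.3) with Benjamini-Hochberg adjustment over all genes tested and a threshold of 0.05. The fit of the 21 Trp53 wild-type libraries had no covariates, Trp53-deficient units had their own fit, and fits across backgrounds used 25 units, with libraries of an animal summed. Where libraries share a mouse, p-values mix spread within a mouse with spread between mice. The fits were tested on simulated data. For restored against non-restored, edgeR recovered 49% of 2-fold and 87% of 4-fold changes in Trp53 wild-type tumors. In Trp53-deficient tumors it recovered 17% and 63%, so changes of this size could often be missed there. Gene coordinates came from the GRCm38 annotation. Near-identical copies (Gstp2 for Gstp1, pseudogenes for Fth1, Ftl1 and Prdx1, among others) leave 12 members uncertain, and summing them was an alternative.

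The 44 genes, the 112 other pathway genes and the marker lists were chosen with earlier results of these data known. Values are given for Nfe2l2, Keap1, every member called in any of 8 comparisons, the member with the smallest p of each role, the 5 highest and 5 lowest by TPM, members not tested, and up to 4 other pathway genes called per direction. Gsto1, Gsta4 and the sex terms were added after their values had been seen. Alternatives were DESeq2 1.42.0, other size factors, count filters and length offsets, summed copies, sex, each control arm, females, the replicate block, each library left out and, added after seeing the data, fits without restored replicates 4 and 5 or without libraries with Ptprc over 10 CPM.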

Additional observations from a re-analysis of the deposited data

Results flagged for a closer look

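Dixon's 95% limit was applied to 115 sets of a gene and a group of 4 to 10 units. In 16 sets the gap from a single highest or lowest value to the nearest other value exceeded it. Chance alone gives about 1 in 20 where values are normally distributed. That was not tested for these CPM values, so no excess over chance is read from the 16. No explanation was tested for any of them. In the Trp53 wild-type non-restored group replicate 8 held 4 of these. It was the highest for Aldh3a1 (5.59 CPM, against 0 to 2.57 CPM in the others), Gstm2 (5.82 CPM, against 0 to 2.79 CPM) and Srxn1 (25.2 CPM, against 3.94 to 15 CPM) and the lowest for Hmox1 (17.9 CPM, against 37.1 to 54.5 CPM). This library also had the lowest alveolar type II marker sum of its group, 6147 CPM. Non-restored replicate 10, a male, was the highest for Gsta3 (5.25 CPM, against 0.344 to 2.6 CPM) and Prdx6 (227 CPM, against 155 to 193 CPM), the values nearest to the KT and restored groups. Non-restored replicate 2 was the highest for Ggt1 (1.29 CPM, against 0 to 0.515 CPM), and KT replicate 1 for Gstt1 (102 CPM, against 56.5 to 59.8 CPM).

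Among the 4 Trp53-deficient non-restored animals, the animal of replicate 7 was the highest for Nqo1 (17 CPM, against 1.43 to 3.68 CPM) and Ggt1 (6.41 CPM, against 0.153 to 0.648 CPM). It had an airway marker sum of 12973 CPM, of which Scgb1a1 made 9.16 CPM and Cyp2f2 25.7 CPM. The animal of replicates 4 and 5 was the highest for Ephx1 (6.59 CPM, against 1.79 to 2.29 CPM) and Gstm1 (100 CPM, against 27.2 to 33 CPM). Trp53-deficient restored replicate 1 was the highest for Ephx1 (9.25 CPM, against 2.71 to 3.78 CPM) and Sod3 (18 CPM, against 0.223 to 2.97 CPM) and the lowest for Ftl1 (651 CPM, against 1000 to 1040 CPM). Trp53-deficient restored replicate 2 was the highest for Keap1 (30.8 CPM, against 19.4 to 21.4 CPM).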

How the results depend on the processing

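No called value of a named gene changed sign under the alternatives run, and of the single-gene values under alternatives 848 stayed on their side of the threshold, 91 lost their call and 17 gained one. Members called for restored against non-restored numbered 5, and 8 by DESeq2 and 1 against the tamoxifen arm alone. Without restored replicates 4 and 5 they numbered 5, with Gstm1 and Mgst1 lost and Gclc and Mgst3 gained. The gained genes were lower after restoration, and the lost ones had been higher. Members called numbered 4 without libraries with Ptprc over 10 CPM and 3 to 7 with each library left out, lowest without restored replicate 5. For non-restored against KT they numbered 11, and 4 against the tamoxifen arm alone, 5 in females, and 5 to 11 with each library left out (6 without KT replicate 1, 5 without KT replicate 3). Between the Trp53 backgrounds there was 1 call among non-restored tumors, 3 by DESeq2, with sex as a covariate or with libraries as separate units, and 1 to 6 with each library or animal left out. Among restored tumors there was 1, 2 by DESeq2 or with sex as a covariate, 0 with 10 counts in every library, which removes Ephx1, and 1 to 2 with each library or animal left out. The cause of these changes was not tested. Fits with the replicate number as a block gave 7, 10 and 1 (Mgst1) members for restored against non-restored, non-restored against KT and restored against KT. Same-numbered libraries did not deviate together in every pair (correlations from -0.06 to 0.51), so they share only a number and no pairing was drawn from it.

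Over all genes the calls for restored against non-restored were 236, and 471 by DESeq2, 50 against the tamoxifen arm, 420 without restored replicates 4 and 5 and 89 without libraries with Ptprc over 10 CPM. For non-restored against KT they were 741, and 280 and 132 against the tamoxifen arm and in females. For restored against KT they were 58, and 176 by DESeq2, 20 with 10 counts in every library, 22 with sex as a covariate, 10 in females, 38 without restored replicates 4 and 5 and 32 without libraries with Ptprc over 10 CPM. Between non-restored backgrounds they were 80, and 416 by DESeq2, 302 with sex as a covariate, 465 with libraries as separate units and 1448 without non-restored replicate 8. Between restored backgrounds they were 51, and 225 by DESeq2. For restoration in Trp53-deficient tumors DESeq2 gave 26 in place of 0, and between control arms 13 in place of 1. With 1302482 to 5943951 counts per library, Nqo1, Aldh3a1, Ggt1 and, in non-restored tumors, Gsta3 rest on few reads.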
